A study of Mus musculus with 3 samples.

Results

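Small nucleolar RNA host genes are transcribed loci whose introns carry small nucleolar RNAs or related small RNAs. A set of 9 such noncoding genes, Snhg1, Snhg3, Snhg5, Snhg6, Snhg8, Snhg12, Snhg15, Snhg20 and Gas5, was sought by symbol in the 3 deposited count tables. Only 3 of the 9, Snhg6, Snhg12 and Snhg20, were listed, each of them in all 3 tables, among 11979 genes that all 3 tables list. Snhg20 was chosen by its UMI level in microglia-like cells, which was higher without MHC class II than with it, so that difference is given as a description and not as a test.

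The libraries were 1 from an MHC class II-deficient mouse, in which CD4 T cells were almost completely missing, and 2 from adult wild type (WT) mice, called WT 1 and WT 2. The labels give no age for the deficient mouse and no allele or strain. Cells positive for CD11b and CD45 were sorted from brain, which collects microglia (the tissue macrophages of the brain) along with other myeloid cells, and were profiled with a droplet kit that reads the 3′ end of polyadenylated RNA. The series names 1 deficient and 2 WT mice, so the spread among deficient mice is unknown. H2-Aa, H2-Ab1 and H2-Eb1, the classical class II chains, were not listed for the deficient library and had between 2610 and 4448 unique molecular identifiers (UMIs) in each WT library.

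When a host gene is spliced, its introns are processed into small RNAs that guide chemical modification of other RNAs: C/D box members direct ribose methylation and H/ACA box members direct pseudouridylation, largely on ribosomal RNA. The spliced exons leave a long RNA that in many cases ends translation early and is degraded by nonsense-mediated decay, and several host genes belong to the growth-linked class of transcripts that begin with a pyrimidine tract. The droplet assay counts the spliced, polyadenylated host RNA and not the small RNAs cut from its introns.

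The 3 listed genes carry different small RNAs. Snhg12 (mm10 chr4:132308623-132311024, plus strand) contains the H/ACA RNAs Snora16a, Snora44 and Snora61 and the C/D RNA Snord99. Snhg20 (chr11:117076008-117078955, plus strand) contains a small Cajal body RNA annotated as Gm26083 and, overlapping it, the microRNA precursor Mir6516. Snhg6 (chr1:9941959-9944118, minus strand) contains the C/D RNA Snord87. The cargo of the 3 genes is shown here to make that difference visible, with 1 small RNA of each gene from GENCODE and the mature microRNA from RefSeq, all on GRCm38. In the C/D RNAs the capitals mark the C box near the 5′ end and the D box near the 3′ end. In Gm26083 they mark the last ACA triplet, and in the microRNA the seed, bases 2 to 8.
Snord99 in Snhg12 (chr4:132310691-132310764, plus strand): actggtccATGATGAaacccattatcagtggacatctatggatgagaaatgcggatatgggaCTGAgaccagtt
Snord87 in Snhg6 (chr1:9942463-9942549, minus strand): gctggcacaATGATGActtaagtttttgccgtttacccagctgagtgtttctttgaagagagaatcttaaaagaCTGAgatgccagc
Gm26083 in Snhg20 (chr11:117077243-117077435, plus strand): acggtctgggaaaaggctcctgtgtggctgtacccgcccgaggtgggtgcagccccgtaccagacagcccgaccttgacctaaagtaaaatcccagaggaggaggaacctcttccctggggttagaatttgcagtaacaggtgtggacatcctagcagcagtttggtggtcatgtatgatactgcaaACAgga
miR-6516-5p in Snhg20 (chr11:117077370-117077391, plus strand): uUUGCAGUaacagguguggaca

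Snhg12 and Snhg20 moved in opposite directions between microglial states, as given further on, and their promoter windows are shown for that reason (RefSeq, GRCm38.p6, 250 bases before the annotated start and 50 from it). The windows were searched on both strands for TATAAA or TATATA (core promoter box), CCGGAAG (ETS site), TGANTCA (AP-1 site), TGACG (CRE core) and GAANNTTC (heat shock element core), and for a run of at least 7 bases of C or T only within 10 bases of the start. No 2 matches overlapped, and the capitals mark every match.
Snhg12 (chr4:132308428-132308727, plus strand): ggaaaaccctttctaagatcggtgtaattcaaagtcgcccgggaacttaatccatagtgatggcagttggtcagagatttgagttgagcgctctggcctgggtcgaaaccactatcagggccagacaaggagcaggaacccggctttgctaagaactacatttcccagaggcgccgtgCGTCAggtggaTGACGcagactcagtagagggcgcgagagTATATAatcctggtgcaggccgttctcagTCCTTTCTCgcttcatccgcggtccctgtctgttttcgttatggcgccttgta
Snhg20 (chr11:117076533-117076832, plus strand): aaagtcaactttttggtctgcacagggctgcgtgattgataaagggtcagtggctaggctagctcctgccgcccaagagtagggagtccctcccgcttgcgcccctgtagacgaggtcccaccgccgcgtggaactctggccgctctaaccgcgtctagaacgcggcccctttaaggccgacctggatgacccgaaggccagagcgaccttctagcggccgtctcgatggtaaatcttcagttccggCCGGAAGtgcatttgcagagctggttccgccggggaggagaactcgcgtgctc

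The Snhg12 window held a TATATA 32 bases before the start, a motif found in 16.8% of 32544 promoter windows. It also held 2 copies of TGACG (20.9% of windows held at least 1) and a pyrimidine run of 9 bases at the start (20.1% of windows). The Snhg20 window held none of these and had 1 CCGGAAG that spans the start (8.91% of windows). Neither window held TGANTCA or GAANNTTC, which were in 7.79% and 7.89% of windows. The RefSeq starts of Snhg12 (132308678) and Snhg20 (117076783) both lie inside the GENCODE genes, downstream of their annotated 5′ ends (132308623 and 117076008). These are matches of letters, and binding was not measured. A RefSeq window for Snhg6 was not used here.

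The remaining 6 genes, Snhg1 (chromosome 19), Snhg3 (chromosome 4), Snhg5 (chromosome 9), Snhg8 (chromosome 3), Snhg15 (chromosome 11) and Gas5 (chromosome 1), were in none of the tables. An unlisted gene has no value here and was not measured as 0. GENCODE classes the 3 listed genes as lincRNA and all 6 unlisted genes as processed transcript. Of 5847 lincRNA symbols in the annotation 751 (12.8%) were in at least 1 table, against 6 of 789 processed transcript symbols (0.760%). Absence from the tables thus went with annotation class. The 5 other noncoding host genes listed in all 3 tables, out of 14 on a comparison list, were Snhg9, Snhg10, Snhg11 (protein coding in GENCODE), Epb41l4aos and Mir17hg. Of these, Mir17hg contains 6 annotated microRNAs and no annotated small nucleolar RNA.

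The libraries held 2278 barcodes and 6616662 UMIs (deficient), 4589 barcodes and 16230216 UMIs (WT 1) and 4815 barcodes and 17293844 UMIs (WT 2). Filtering left 2257, 4340 and 4667 cells, of which 2201, 3898 and 4385 were microglia-like by their marker genes, with all 12 microglial markers detected in each library. Between 13 and 30 barcodes were shared by each pair of libraries. Levels are given as CPM, the UMIs of a gene per 1000000 UMIs of the cells summed. The immediate early gene list, all 14 genes of which had UMIs in every library, summed to 6442 CPM in deficient microglia and to 16737 and 11182 CPM in WT 1 and WT 2. A list of 12 neutrophil genes summed to 253 CPM in deficient microglia, with Ly6g at 0, and to 1404 and 809 CPM in WT microglia, with none at 0. The part of these lists in the differences between genotypes given next was not tested.

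In microglia-like cells as a whole, Snhg20 was higher in the deficient library, Snhg12 had its lowest value there without passing the test, and Snhg6 lay between the WT values. Snhg20, a long noncoding RNA best known from studies of human tumour cells, stood at 44.9 CPM in deficient microglia (289 UMIs, exact Poisson 95% interval 39.9 to 50.4), against 20.1 CPM in WT 1 (280 UMIs, 17.9 to 22.6) and 23.0 CPM in WT 2 (359 UMIs, 20.6 to 25.5). The deficient value lay above both WT values, which the choice of the gene fixes, and the intervals leave out the spread between mice. The ratio of the deficient level to the WT mean was 2.09, and it was 2.23 against WT 1 alone and 1.96 against WT 2 alone. The fitted log2 fold change was 1.06 (SE 0.13). In summed cells, more cells that express a gene and more of its RNA per cell cannot be told apart.

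Snhg12 stood at 25.7 CPM in deficient microglia (165 UMIs), against 39.1 CPM in WT 1 (544 UMIs) and 32.3 CPM in WT 2 (505 UMIs). The deficient value was the lowest of the 3, while the WT libraries also differed from each other. Its log2 fold change was -0.47 (SE 0.15, adjusted p = 0.121, edgeR quasi-likelihood test), which misses the threshold of 0.05.

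Snhg6 stood at 23.2 CPM in deficient microglia (149 UMIs), against 23.7 CPM in WT 1 (330 UMIs) and 21.2 CPM in WT 2 (332 UMIs). The deficient value lay between the WT values, with a log2 fold change of 0.05 and an SE of 0.13 (adjusted p = 0.882, edgeR). Over all genes 824 of 11865 were called, 6.94%, with 1.2% higher and 5.75% lower in deficient microglia. Of the 3 host genes 1 was called, Snhg20, the gene chosen for this difference, so nothing is read from that count. The other host genes had between 1.24 and 12.6 CPM in every library, and 0 of these 5 were called by edgeR, by DESeq2 or by limma, with 1 below 0.05 before adjustment (Snhg11).

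**Figure D1:**
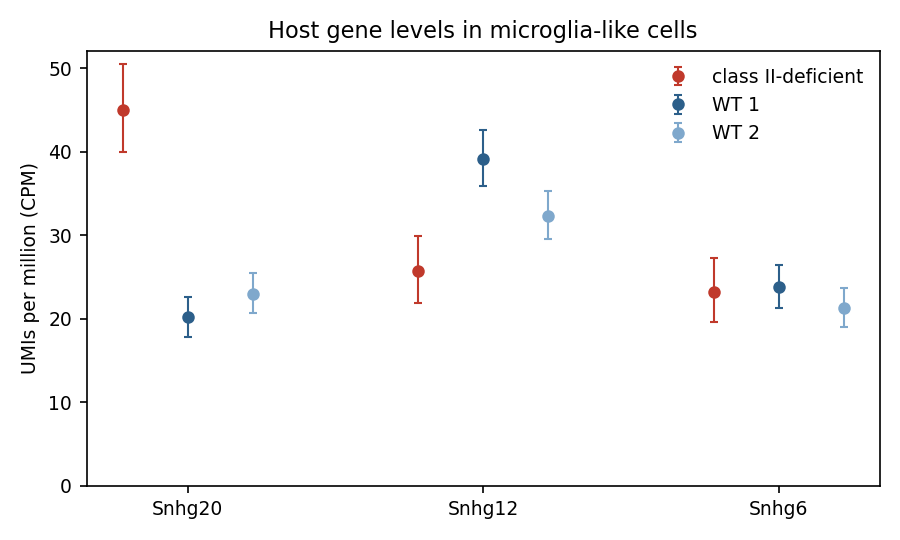
Level of each host gene in microglia-like cells, in CPM, for the class II-deficient library and the 2 WT libraries, with points at the library value and bars for the exact Poisson 95% interval (counting error only). Snhg20 is at 44.9 CPM in the deficient library and at 20.1 and 23.0 CPM in WT, while the 3 Snhg6 points lie between 21.2 and 23.7 CPM.

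Set among its relatives, Snhg20 gave 47.9% of the UMIs of the 3 host genes in deficient microglia (exact Clopper-Pearson 95% interval 43.9 to 52.0), against 24.3% in WT 1 (21.8 to 26.8) and 30.02% in WT 2 (27.4 to 32.7). The deficient share was the highest, which restates the level that the gene was chosen by. Snhg12 gave 27.4% of these UMIs in deficient microglia and 47.1% and 42.2% in WT. The shares describe how the counts divide and do not rank the genes by abundance.

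Per cell the gene was sparse, with at most 4 UMIs of Snhg20 in any microglia-like cell. A Snhg20 UMI was found in 12.3% of deficient microglia-like cells and in 6.77% and 7.69% of those of WT 1 and WT 2, at median depths of 2826, 3375 and 3324 UMIs. After every cell was thinned to 1000 UMIs, which left out 43 deficient, 57 WT 1 and 52 WT 2 cells, the shares were 4.77% in the deficient library and 2.32% and 2.33% in WT. The deficient share was the highest at full depth and after thinning, which follows from the level that the gene was chosen by. That library was the shallowest. In neutrophil-like cells, a class with few Snhg20 UMIs, the shares were 0.714% in WT 1 and 2.96% in WT 2, and 0.743% and 0.813% after thinning, at median depths before thinning of 2985.5 and 2978 UMIs.

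Of the genes next to each host gene, those tested did not pass the test. Tcf24, next to Snhg6, was not tested, with 0 CPM in deficient microglia and 0 and 0.384 CPM in WT. Trnau1ap, which ends 739 bases beyond Snhg12 on the opposite strand, had 25.4 CPM in deficient microglia and 25.5 and 26.5 CPM in WT (log2 fold change -0.03, adjusted p = 0.929, edgeR). Sec14l1, the nearest listed gene downstream of Snhg20 at 36213 bases, had 106 CPM in deficient microglia and 116 and 104 CPM in WT (log2 fold change -0.05, adjusted p = 0.828, edgeR). Mfsd11, on the upstream side at 200373 bases, had 70.5 CPM in deficient microglia and 88.1 and 86.4 CPM in WT (log2 fold change -0.30, adjusted p = 0.0862, edgeR). Mcmdc2 overlaps the last 127 bases of Snhg6 on the opposite strand and had 2.64 CPM in deficient microglia and 3.02 and 1.47 CPM in WT. The strand setting of the counting is unknown here, so reads of that overlap cannot be told apart.

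Microglia-like cells were then divided into states by clustering on values centred within each library, with the host genes left out of the clustered genes. The states were drawn from the same cells that are compared, so the p-values below do not count the choice of states. The largest state was led by Arl10, Gm26520 and Rsrp1 and held 1251 deficient, 1990 WT 1 and 2486 WT 2 cells. Another was led by Notch2, Slc39a1 and Kmt2d (423, 635 and 779 cells), and another by Fam71a, Ccrl2, the inducible heat shock genes Hspa1b and Hspa1a, and the chemokine Ccl4 (324, 699 and 642 cells). An immediate early state was led by Dusp5, Maff, Fosb and Atf3 (121, 471 and 370 cells), and an interferon state by Ifit3, Oasl2 and Irf7 (65, 78 and 74 cells). A state led by Lgals3 and Gas2l3, with Lpl and Cst7 among its leading genes, held 17, 25 and 34 cells, under the 20 per library needed for a test.

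Snhg12 and Snhg20 went opposite ways in the immediate early state, in which genes induced within minutes of stimulation are high. Snhg12 had 87.9 CPM there in the deficient library (40 UMIs) and 91.8 and 91.7 CPM in WT 1 and WT 2 (209 and 172 UMIs). The 3 libraries lay close together, and in each the level was above that of the other states tested. Relative to the remaining microglia of the same library the level was 4.20 times in the deficient library and 3.19 and 3.79 times in WT. The fitted log2 difference was 2.08 (SE 0.12, adjusted p = 4.24e-10, edgeR with the library as a block).

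Snhg20 in the same cells had 6.59 CPM in the deficient library (3 UMIs, 1.36 to 19.3), 5.27 CPM in WT 1 (12 UMIs) and 4.27 CPM in WT 2 (8 UMIs). The values were the lowest of the 5 states tested in the deficient library and in WT 2, and in WT 1 lay beside that of the Hspa1a- and Ccl4-led state. The log2 difference from the other microglia was -2.17 (SE 0.24, adjusted p = 2.47e-06, edgeR). Snhg6 had 41.7 CPM in the deficient library (19 UMIs) and 26.4 and 29.9 CPM in WT (60 and 56 UMIs), and was higher than in the other microglia by 0.71 (log2, SE 0.17, adjusted p = 0.00561, edgeR).

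All 3 genes were thus called in this state, where 26.9% of 10586 genes were called, 15% higher and 11.9% lower. The Snhg6 call was lost after cells were thinned to 1000 UMIs (0.49, adjusted p = 0.446) and without WT 2 (0.67, adjusted p = 0.0701). The median UMI count was 4604 in this state and 3068 in the largest one.

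In the largest state the order was the reverse. Snhg20 had 54.2 CPM in the deficient library, 28.1 CPM in WT 1 and 29.1 CPM in WT 2, and was 1.60, 2.14 and 1.81 times the level of the other microglia of the same library. Its log2 difference was 0.79 (SE 0.10, adjusted p = 9.32e-06, edgeR). Snhg12 had 20.3 CPM in the deficient library and 27.9 and 23.9 CPM in WT, which was 0.631, 0.570 and 0.571 times the other microglia. It was lower by a log2 difference of -0.88 (SE 0.09, adjusted p = 1.49e-07, edgeR). The other microglia here included the immediate early state, with Snhg12 at 87.9 CPM in the deficient library and 91.8 and 91.7 CPM in WT. That raises the level compared with, so the Snhg12 call is not separate from the immediate early result. The same cells entered the Snhg20 comparison. Snhg12 was lower still in the Notch2-led state of each library, as given below. Snhg6 was not called (-0.20, adjusted p = 0.239). In this state 13.6% of genes were called, 3.94% higher and 9.67% lower. With no library block the Snhg20 call was lost (0.79, adjusted p = 0.494).

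In the Hspa1a- and Ccl4-led state Snhg20 had 17.8 CPM in the deficient library, 5.22 CPM in WT 1 and 13.8 CPM in WT 2. Each value was below the other microglia of its library, at 0.356, 0.223 and 0.565 times. It was lower by a log2 difference of -1.31 (SE 0.19, adjusted p = 7.45e-05, edgeR), a call lost with no library block (adjusted p = 0.494). Snhg12 (-0.13) and Snhg6 (0.02) were not called there, and 5.02% of genes were, 3.19% higher and 1.83% lower. Snhg11 was the 1 other host gene called, at 2.01 (adjusted p = 0.00129, edgeR), from 3 UMIs in the deficient library and 13 and 20 in WT. Snhg20 was thus called lower in both the immediate early state and this one, and Snhg12 called higher in the immediate early state; the difference between the 2 states was not tested.

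In the Notch2-led state Snhg12 had 16.0 CPM in the deficient library and 25.9 and 18.6 CPM in WT, and was lower than in the other microglia (-0.83, SE 0.13, adjusted p = 2.69e-06, edgeR). That call was lost after thinning to 1000 UMIs (-0.41, adjusted p = 0.604) and with no library block (adjusted p = 0.169). The cells compared with again included the immediate early state, where Snhg12 was highest. Snhg20 (0.32, adjusted p = 0.130) and Snhg6 (-0.38, adjusted p = 0.128) were not called in this state, where 6.27% of genes were. In the interferon state none of the 3 was called by edgeR, nor was any below 0.05 before adjustment, against 2.5% of genes called. With 3 to 12 UMIs per gene and library, small differences were not detectable there.

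**Figure D2:**
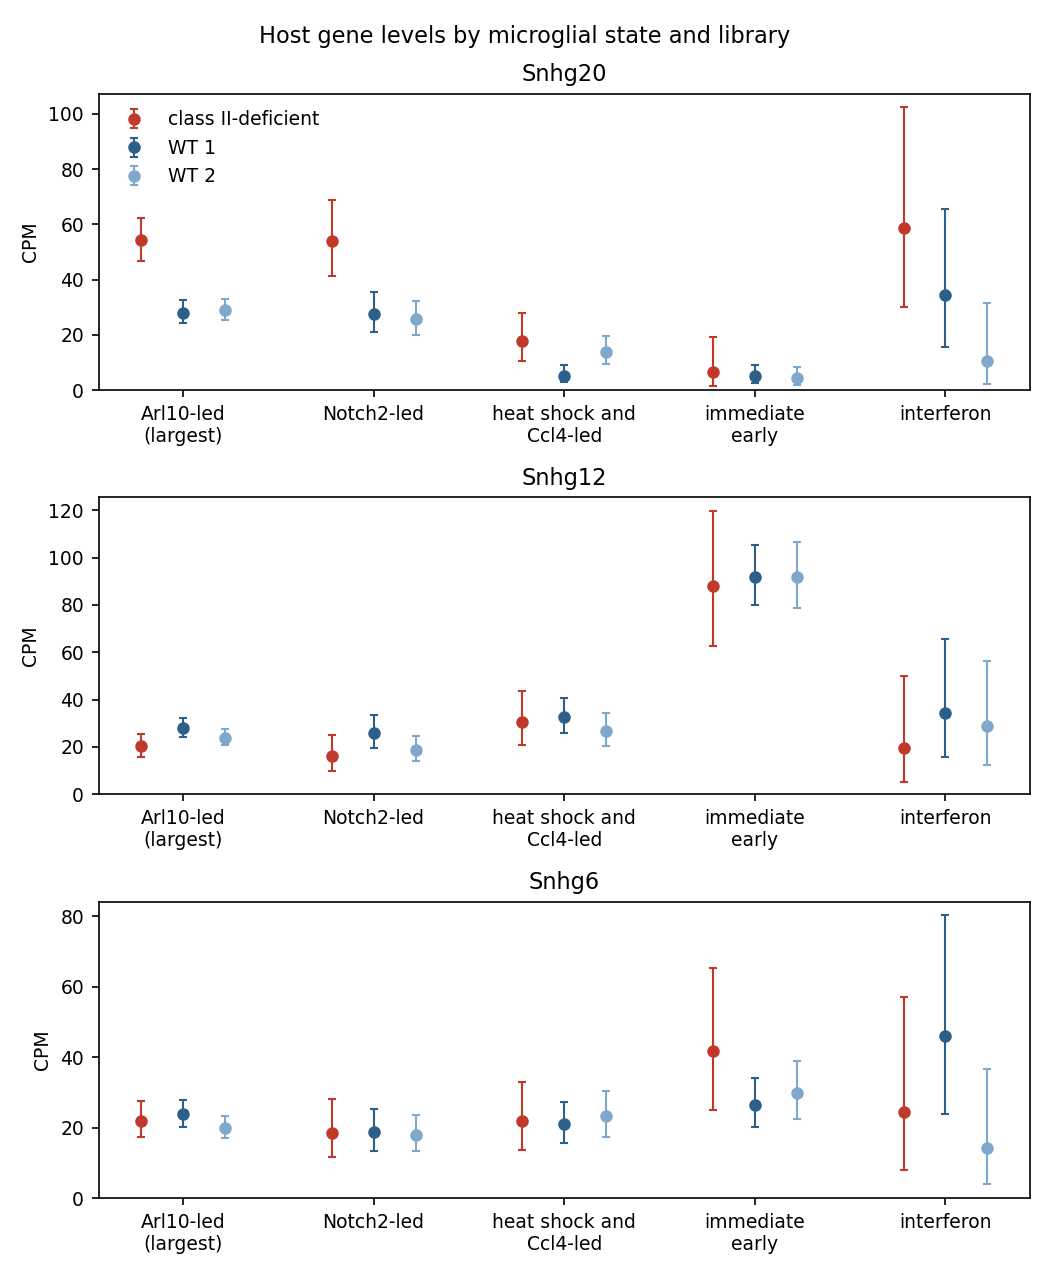
Level of each host gene in CPM by microglial state, with the class II-deficient library left of WT 1 and WT 2 and bars for the exact Poisson 95% interval. In the immediate early state Snhg12 is between 87.9 and 91.8 CPM in all 3 libraries and Snhg20 between 4.27 and 6.59 CPM.

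**Figure D3:**
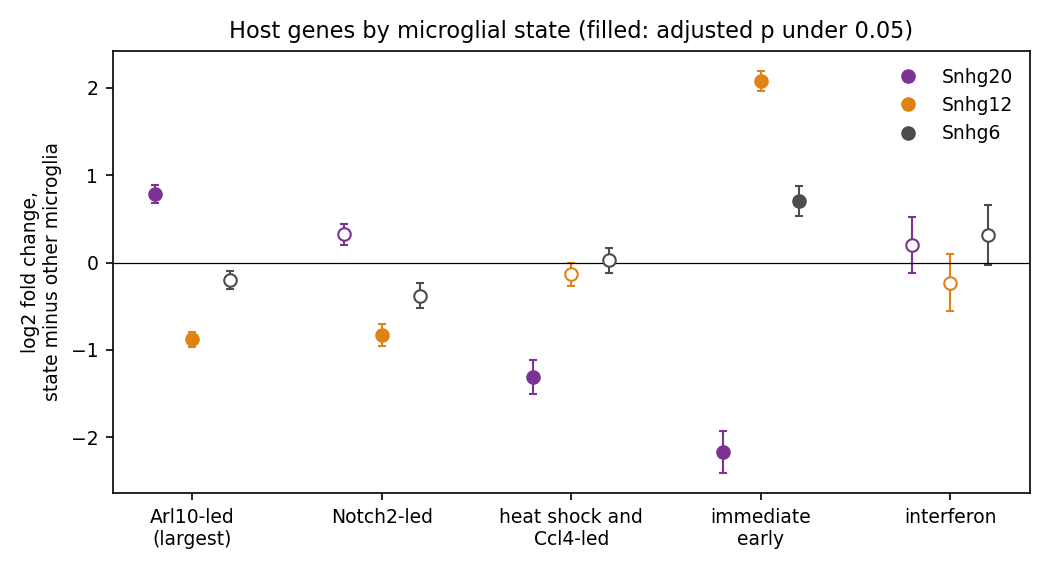
Log2 difference of each host gene in each microglial state from the other microglia-like cells, from edgeR with the library as a block, with bars of 1 SE and filled points where the adjusted p is under 0.05. Snhg12 is at 2.08 and Snhg20 at -2.17 in the immediate early state, and they stand at -0.88 and 0.79 in the largest state.

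Within the largest state the ratio of the deficient Snhg20 level to the WT mean was 1.90, and in the Notch2-led state, with 53.9 CPM in the deficient library and 27.7 and 25.7 CPM in WT, it was 2.02. It was 1.87 in the Hspa1a- and Ccl4-led state and 2.59 in the interferon state, where the deficient library had 58.6 CPM (12 UMIs) and WT 1 and WT 2 had 34.5 and 10.7 CPM (9 and 3 UMIs). Against WT 1 and WT 2 singly the ratio was 3.41 and 1.29 in the Hspa1a- and Ccl4-led state, and 1.70 and 5.46 in the interferon state. These states divide the cells in which the gene was chosen, so the ratios describe where the difference lay and do not test it. The interferon ratio rests on few UMIs, and for the immediate early state, with 3, 12 and 8 UMIs, no ratio is given. The immediate early levels were 6.59 CPM in the deficient library and 5.27 and 4.27 CPM in WT 1 and WT 2. That state took 5.50% of deficient microglia-like cells and 12.1% and 8.44% of those of WT 1 and WT 2. In the largest state alone the log2 fold change of Snhg20 between the genotypes was 0.94, against 1.06 over all microglia.

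Snhg12 within states was close between the genotypes where it was highest, at 0.958 times the WT mean in the immediate early state, and was 0.782 times the WT mean in the largest state and 0.719 times in the Notch2-led state. In the largest and Notch2-led states the deficient value was the lowest of the 3, as it was in the interferon state (19.5 CPM in the deficient library, 34.5 and 28.6 CPM in WT). In the Hspa1a- and Ccl4-led state it lay between the WT values (30.6 CPM in the deficient library, 32.5 and 26.8 CPM in WT). In the largest state alone the fold change between the genotypes did not pass the test (-0.33, adjusted p = 0.386, edgeR). Whether the effect of state differs between the genotypes was fitted as an interaction, added after the values were seen. None of the 3 genes was called in any state by edgeR, and before adjustment 1 was below 0.05, Snhg12 in the Hspa1a- and Ccl4-led state. Of all genes 1.24% were called in the interaction for the largest state, 0.589% for the Notch2-led, 0.577% for the Hspa1a- and Ccl4-led, 0.86% for the immediate early and 0.0443% for the interferon state.

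**Figure D4:**
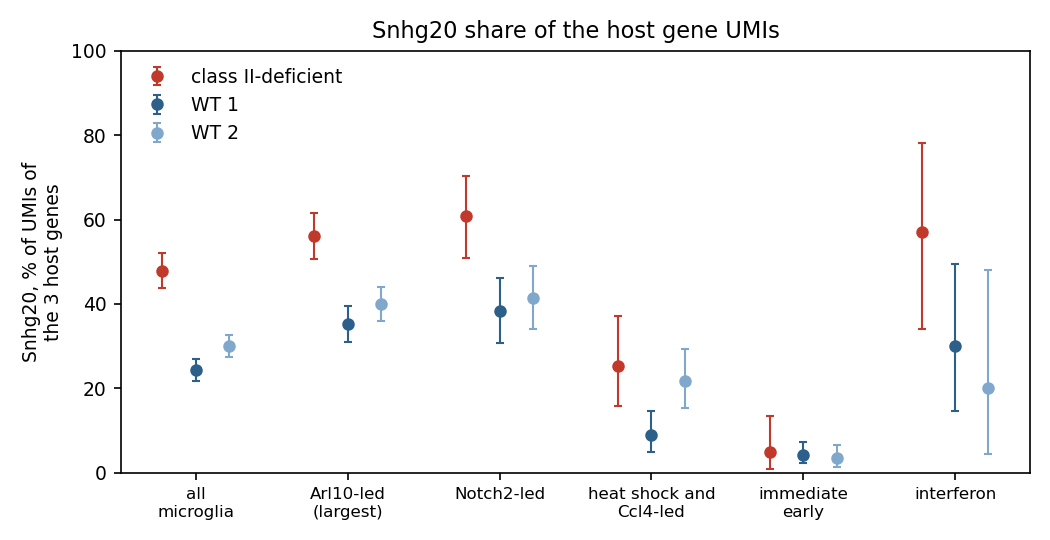
Snhg20 as a percentage of the UMIs of the 3 listed host genes, in all microglia-like cells and in each state, with the class II-deficient library left of WT 1 and WT 2 and bars for the exact Clopper-Pearson 95% interval. The share is 56.2% in the deficient library and 35.2% and 39.9% in WT in the largest state, and between 3.39% and 4.84% in the immediate early state.

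Clustering all cells without centring put most deficient microglia into clusters of their own, which gives a second view of the same cells. In the cluster led by Ccr6, Tagap1 and Ddit4, Snhg20 had 55.5 CPM in 1598 deficient cells (251 UMIs), and 50.03 and 58.3 CPM in the 50 WT 1 and 112 WT 2 cells that fell into it (6 and 17 UMIs). In a mostly WT cluster led by 3222401L13Rik, Snhg20 gave 40.0% of the host gene UMIs in deficient cells (6 UMIs), and 47.1% and 43.0% in WT 1 and WT 2 (73 and 101 UMIs). In another, led by Slc39a1 and Notch2, it gave 75.0% in deficient cells (9 UMIs), and 37.9% and 39.0% in WT (53 and 64 UMIs). Deficient counts were few in both. In a cluster led by Tagap1, Oser1 and Ccr6, with Tnf among its leading genes and 285 deficient cells, Snhg20 had 8.49 CPM (8 UMIs) and Snhg12 had 36.1 CPM (34 UMIs). Low Snhg20 was thus also found in a group of deficient cells. In a cluster led by Srxn1 and Klf4, with Fosb and Atf3, the 3 host genes summed to 161 CPM in WT 1 (227 UMIs, 76.7% Snhg12). In a cluster led by Dusp2 and Gm17056 they summed to 45.8 CPM in WT 1 (23 UMIs, 65.2% Snhg12). The deficient library and WT 2 had only 2 and 1 host gene UMIs in the Dusp2-led cluster. Snhg12 was thus not equally high in every such group of WT 1 cells.

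By a rule on similarity of pattern, the genes closest to Snhg20 over 19 sums of a class or state in 1 library were Tmem208 (Pearson r = 0.90 of log2(CPM + 1)), Dynlt1c (0.89), Psenen (0.87), Lamtor1 (0.87) and Reep5 (0.87), among 5966 genes. Psenen is a subunit of gamma-secretase, Lamtor1 anchors the Ragulator complex at the lysosome, and Dynlt1c is a dynein light chain of a family of near-identical copies whose reads may be split. The genes closest to Snhg12, a list added after the data were seen, were Tubb2a (0.95), Wsb1 (0.94), Ddx5 (0.94), H2-Q4 (0.94) and Herpud1 (0.94). The sums share libraries, depth and cell states, and no p is given.

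Between classes of cells with TMM scaling, Snhg6 was the 1 of the 3 host genes called, higher in border macrophage-like and in neutrophil-like cells than in microglia-like cells. In neutrophil-like cells the scaling decided which of the 3 were called and the sign of Snhg6. Border macrophages, which line the meninges and vessels, were few, with 16 deficient, 79 WT 1 and 79 WT 2 cells in 2 clusters, one of them led by proliferation genes (3, 13 and 23 cells). Snhg6 had 31.04 CPM in them in the deficient library (2 UMIs) and 31.4 and 46.6 CPM in WT (15 and 26 UMIs), above the microglial level of the same library in all 3. The log2 difference was 0.92 (SE 0.31, adjusted p = 0.0198, edgeR with the library as a block), with 18.4% of genes called. The call was lost without WT 1 (1.10, adjusted p = 0.236), without WT 2 (0.50, adjusted p = 0.801) and after thinning (0.38, adjusted p = 0.863).

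Snhg12 had 15.5 CPM in the deficient border macrophage-like cells (1 UMI), and 52.4 and 34.1 CPM in WT, and was not called (0.37, adjusted p = 0.431). Snhg20 had 31.04 CPM in the deficient library (2 UMIs) and 10.5 and 14.3 CPM in WT (5 and 8 UMIs), and was not called (-0.62, adjusted p = 0.337). Counts in the deficient library were too few to place it against WT in this class.

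Neutrophil-like cells numbered 19 in the deficient library, where each of the 3 genes had 0 UMIs, which allows up to 60.0 CPM, and 280 and 135 in WT. Snhg6 had 15.2 and 26.2 CPM in them in WT 1 and WT 2, against 23.7 and 21.2 CPM in microglia-like cells, so that the plain levels did not differ in one direction. The fitted log2 difference was 1.22 (adjusted p = 0.00132, edgeR), with 44.9% of genes called. This direction rested on the scaling. The median over all genes was -0.27 with TMM scaling, -0.96 with DESeq2 size factors and -1.77 with library totals only, and Snhg6 stood at 1.22, 0.53 and -0.29. The scalings shift all genes alike, so the distance of Snhg6 from the median is 1 value and not 3 checks. Snhg6 was called only with TMM among the 3, and not without WT 1 (1.59, adjusted p = 0.0590) or without WT 2 (0.81, adjusted p = 0.257).

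Snhg20 had 1.79 and 6.98 CPM in WT neutrophil-like cells (2 and 4 UMIs), below the microglia-like value of the same library. It was not called with TMM scaling (-1.14, adjusted p = 0.0923) and was called lower with DESeq2 size factors (-1.84, adjusted p = 0.00169). Snhg12 had 12.5 and 3.49 CPM in WT neutrophil-like cells (14 and 2 UMIs) and was likewise called lower only with DESeq2 size factors (-1.18, adjusted p = 0.00438) or library totals. Among 42 and 29 classical monocyte-like cells of WT 1 and WT 2, a class too small to test, Snhg6 had 58.1 and 71.2 CPM (20 and 17 UMIs) and Snhg20 had 5.81 and 4.19 CPM (2 and 1 UMIs).

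**Figure D5:**
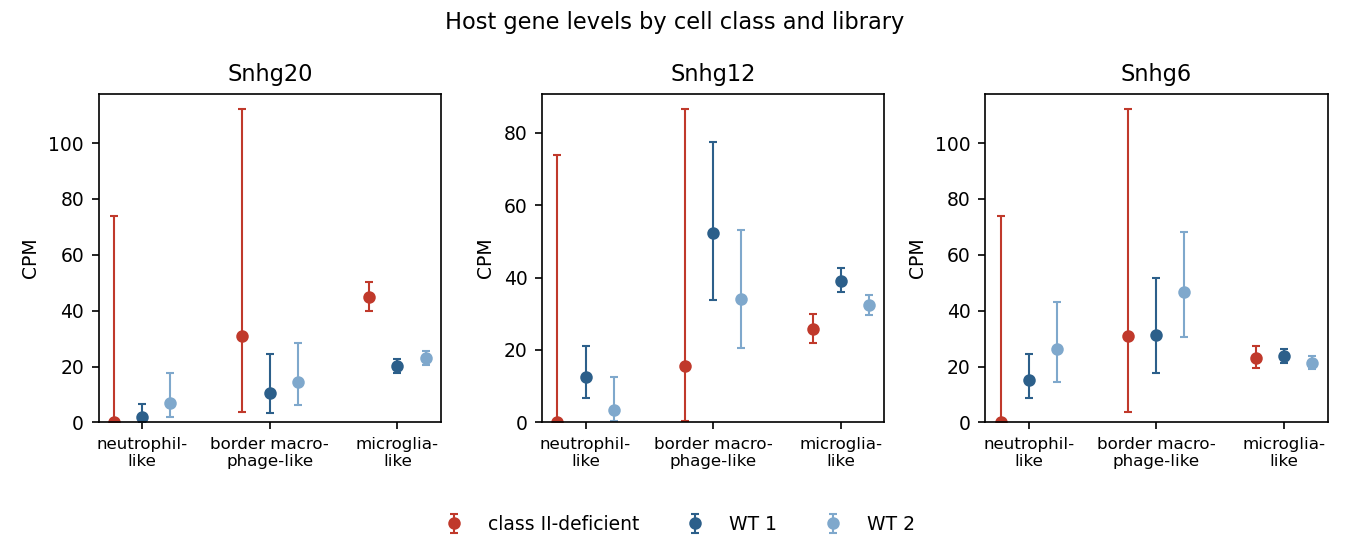
Level of each host gene in CPM in neutrophil-like, border macrophage-like and microglia-like cells, with the class II-deficient library left of WT 1 and WT 2 and bars for the exact Poisson 95% interval. The deficient library held only 19 neutrophil-like and 16 border macrophage-like cells, too few to rank its classes, and in WT 1 and WT 2 Snhg20 has its highest point in microglia-like cells.

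Genes that act on or with host gene transcripts were compared between the genotypes by lists chosen with earlier results of these data known. Of 32 protein-coding genes that host small nucleolar RNAs, mostly ribosomal protein and translation factor genes, 0 were called in deficient microglia by edgeR and by limma and 1 by DESeq2, with 8 below 0.05 before adjustment in edgeR. Their median log2 fold change was 0.07 against -0.00 over all genes. Hspa8, a constitutive chaperone, had 1514 CPM in deficient microglia and 1884 and 2036 CPM in WT (-0.37, adjusted p = 0.140).

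Of 18 tested proteins of the small nucleolar ribonucleoprotein and its assembly, 1 was called by edgeR and 0 by DESeq2, beside 6.94% of all genes called by edgeR. It was Nop10, a core protein of H/ACA particles, higher in deficient microglia. Naf1, an assembly factor of H/ACA particles, had 6.22 CPM in deficient microglia and 11.5 and 10.4 CPM in WT and was not called (-0.80, adjusted p = 0.0656). Fbl, the methyltransferase of C/D particles, had 111 CPM in deficient microglia and 122 and 117 CPM in WT and was not called (-0.10, adjusted p = 0.572). Of 20 tested nonsense-mediated decay factors 1 was called by edgeR and 0 by DESeq2. It was Upf2, with 65.6 CPM in deficient microglia and 43.7 and 50.5 CPM in WT (0.48, adjusted p = 0.0358, edgeR).

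Of 12 tested stress and splicing factor genes whose transcripts are known targets of nonsense-mediated decay, 5 were called lower in deficient microglia by edgeR, Atf4, Ddit3, Gadd45a, Atf3 and Srsf2, and the other 7 were not called. DESeq2 called 2 of the 12, and 5.75% of all genes were called lower by edgeR. Srsf2, a splicing factor, had 206 CPM in deficient microglia and 412 and 374 CPM in WT (-0.93, SE 0.11, adjusted p = 0.000445). Gadd45a, a growth arrest gene, had 3.11 CPM in deficient microglia and 15.4 and 11.3 CPM in WT (-2.09, SE 0.32). The immediate early list was lower in the same library, as given above, and Atf3 belongs to both lists. Of 20 ribosome biogenesis genes 0 were called by edgeR, DESeq2 or limma, with 2 below 0.05 before adjustment in edgeR.

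Of 15 genes of mTOR signalling and growth arrest, Ddit4, an inhibitor of mTOR complex signalling, was higher (log2 fold change 1.85, SE 0.19, adjusted p = 0.000255, edgeR), with 65.9 CPM in deficient microglia and 14.6 and 22.002 CPM in WT, and Eif4ebp2 was lower. DESeq2 called 1 of the 15. Of 7 tested glucocorticoid response genes 2 were lower, Tsc22d3 (-0.46, adjusted p = 0.0328) and Dusp1, which is also an immediate early gene, and DESeq2 called 1 of the 7. Over all genes edgeR called 1.2% higher and 5.75% lower, and lists this short are not read against those shares.

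In the immediate early state, 18 of the 32 protein-coding host genes were called higher than in the other microglia and the other 14 were not called, beside 15% of all genes called higher, at a median log2 difference of 0.38 against -0.02 over all genes. In the largest state 24 of the 32 were called lower and 8 were not called, beside 9.67% of all genes called lower (median -0.19 against 0.01). In the Hspa1a- and Ccl4-led state 15 were called higher and 1 lower, Chd4, beside 3.19% and 1.83% of all genes (median 0.21 against 0.00). These genes were not left out of the clustering, so the counts describe the states. Chd4, a chromatin remodeller gene that hosts small nucleolar RNAs, had the largest value among the 32 in the immediate early state (1.85, SE 0.11). In that state Nop58 and Nop56, core proteins of C/D particles, stood at 1.15 and 0.73, and 10 of 11 decay-sensitive genes were called higher, against the same 15%. The decay-sensitive genes were not left out of the clustering either, and Atf3 is a leading gene of the state. That count therefore describes how the state was drawn and is no test of decay. Snhg12 thus had the sign of the protein-coding hosts called in the immediate early and largest states, and Snhg20 the opposite sign there. Each of these states is among the cells that the other was compared with. In the Notch2-led state 11 of the 32 were called lower and 0 higher, beside 6.27% of all genes called in either direction. Snhg12 was called lower there and Snhg20 was not called. In the Hspa1a- and Ccl4-led state Snhg12 was not called and Snhg20 was called lower.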

How the data were processed

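UMI counts of genes in cell barcodes were used, in 1 table for each of the 3 libraries. The deposited tables hold raw counts that the authors left without normalization. The submitters' processing notes name Cell Ranger 3.0, Seurat 2.2 and mm10; annotation, strand setting and filters were not stated there.

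Cells needed at least 500 UMIs, 200 genes and no more than 10% mitochondrial UMIs. Scrublet marked 28 deficient, 2 WT 1 and 2 WT 2 cells; at that share it is regarded as having failed, so doublets may be present. Each cell was scaled to 10000 and log-transformed, and 2000 variable genes (without host, MHC class II and sex-linked genes) gave 30 principal components. Leiden clustering (resolution 1, scanpy 1.11.5) ran on exact 15-nearest-neighbour graphs with shared-neighbour weights. These replaced approximate neighbours after results had been seen, because approximate neighbours gave different states when the number of processor threads changed. Classes were named from marker lists. States came from resolution 0.5 on microglia-like values centred and scaled within each library.

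UMIs were summed per library and class or state and tested with edgeR 4.0.16 (quasi-likelihood, TMM, filterByExpr, Benjamini-Hochberg over all genes tested, threshold 0.05), also tested on simulated counts. DESeq2 1.42.0 and limma 3.58.1 were alternatives. Class and state fits had the library as a block, since both sums come from the same library. Fits between the genotypes rest on the spread of the WT pair, which may be technical. Alternatives covered scaling, filters, depth, cell sets, tools and libraries left out. Intervals and floors (3 counts) cover counting error only.

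Positions are GENCODE (mouse release 21, GRCm38), and promoter windows and the microRNA are from RefSeq; 2 of the 3 listed genes had a window. Members, lists, markers and tests were chosen with earlier results of these data known. The rule named all members, their nearest listed neighbours, the 5 genes of most similar pattern to Snhg20 (its other target, Gas5, is unlisted), and of each list the 3 genes with the highest CPM and the 1 with the largest fold; some of these, and other genes called, are given only by name or count.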

Additional observations from a re-analysis of the deposited data

Results flagged for a closer look

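Snhg12 in the Hspa1a- and Ccl4-led state was 1.24 times the level of the other microglia in the deficient library and 0.802 and 0.806 times in WT 1 and WT 2, so the genotypes lay on opposite sides. The interaction of state and genotype was not called (adjusted p = 0.676, edgeR). The groups of 1 and 2 libraries were too small to look for a library that stands apart.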

How the results depend on the processing

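Between the genotypes, 481 genes were called with DESeq2, against 824. The log2 fold change of Snhg20 lay between 0.94 and 1.12 in the alternatives run, the lowest with the largest state only (added after the data were seen) and without WT 1. Snhg12 was not called in any tested alternative (adjusted p 0.0916 to 0.698). No paired analysis was possible between the genotypes, because the labels pair no mice and there was only 1 deficient mouse.

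Without activated states, Snhg20 made up 57.3% of the host gene UMIs at 54.2 CPM in the deficient library, 35.9% at 28.0 CPM in WT 1 and 40.2% at 28.3 CPM in WT 2. With the largest state only these were 56.2% at 54.2 CPM, 35.2% at 28.1 CPM and 39.9% at 29.1 CPM. After thinning WT 1 had 28.2% at 23.2 CPM.

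For neutrophil-like cells, 8851 genes were called with library totals only and 2824 after thinning, against 4707, and 1508 to 4659 with 1 library left out. Of the members 2 were called with DESeq2 size factors, 2 with library totals and 0 after thinning, and 0 to 1 with 1 library left out. The sign of Snhg6 reversed with library totals (-0.29), a scaling that moved the median of all genes to -1.77, so the reversal is not particular to Snhg6. For border macrophage-like cells 648 genes and 0 members were called after thinning, against 1957 and 1, and 713 to 1956 genes and 0 to 1 members with 1 library left out. Leaving out the cluster led by proliferation genes kept the Snhg6 call (1.12, adjusted p = 0.00825).

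Over the 5 states 7 member calls were made, 4 with no replicate block. Those lost were Snhg20 in the largest and the Hspa1a- and Ccl4-led states and Snhg12 in the Notch2-led state. In the immediate early state Snhg12 and Snhg20 were called in every alternative run at the same resolution, at 1.84 to 2.25 and -2.42 to -1.96. At resolution 1 the state named immediate early held 46 deficient, 266 WT 1 and 303 WT 2 cells and gave 2.34 and -2.16. These values do not cover a state led by Tnfsf9, Gm17056 and Dusp2 (74, 145 and 42 cells). Nor do they cover a state led by Ccl7, with Egr3 and Egr2 (7, 75 and 30 cells). Of the single-gene values under alternatives, 177 kept their direction and side of the threshold or, untested, moved by less than the spread of the WT pair, and 18 did not. Of the counts of genes called and the Snhg20 shares and levels under alternatives, 69 stayed within the margin set for them and 31 moved beyond it. The cause was not tested. Low counts limit Snhg20 in the immediate early state and all 3 genes outside microglia.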
